A study of Mus musculus with 9 samples.

Results

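Aminoacyl-tRNA synthetases, the enzymes that charge transfer RNAs, were followed in the messenger RNA of primary mouse cortical neurons. The members were every gene whose symbol is a single letter followed by ars, with or without a 1 or 2, together with Eprs, Farsa and Farsb, at a value above 1 in at least 3 of the 9 libraries. Lars2 was left out because its row can collect ribosomal RNA reads. The rule used symbols and this minimum only, and 36 of the 24054 rows of the table met it. All 36 were among the 12923 genes tested: 18 cytosolic enzymes, 16 mitochondrial enzymes, and Gars and Kars, which each serve both compartments. The libraries formed 3 groups of 3, all from wild-type C57BL/6 neurons kept 6 days in culture: neurons held 7 hours at 0.2% oxygen with triiodothyronine, a thyroid hormone, at 10 nM (hypoxia with T3), neurons held at the same oxygen for the same time without the hormone (hypoxia), and neurons in normal oxygen (normoxia). Each library is called by its group and its column number. Levels are TMM-normalized CPM, read counts scaled by the authors to a library size adjusted by the TMM method. The columns therefore do not share 1 total, and they summed to 945822 (hypoxia 9) to 1091200 CPM (normoxia 1).

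Each synthetase joins an amino acid to its own transfer RNA, the step that fixes which amino acid a codon receives. For most amino acids a nuclear gene encodes the cytosolic enzyme and another, with a 2 at the end of its symbol, encodes an enzyme that is imported into mitochondria, where it serves the translation of the respiratory chain subunits that mitochondrial DNA encodes. Several cytosolic enzymes are held together with the scaffold proteins Aimp1, Aimp2 and Eef1e1 in the multi-synthetase complex. Transcription of many cytosolic synthetase genes is known to be driven by ATF4, the transcription factor of the integrated stress response, which binds C/EBP-ATF response elements, while the hypoxia-inducible factors bind a shorter core. In the human nervous system, inherited variants of Gars, Yars, Aars and Hars are known from peripheral neuropathy and those of many mitochondrial synthetases from brain disease of childhood.

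The libraries held 17182339 to 33937842 reads, and 1 read was worth 0.0302 to 0.0565 CPM. Every value of the 36 genes was a whole number of reads, from 69 (Fars2 in hypoxia 7) to 14153 (Aars in hypoxia with T3 13), and the mitochondrial enzymes, at 69 to 1438 reads per library, carried the larger counting error. Nothing in the labels ties the libraries to separate cultures, so the p-values rest on a spread between libraries that may be technical. All 9 neuron markers looked for passed the filter, with summed levels of 6983 to 7156 CPM in hypoxia with T3, 6967 to 7548 CPM in hypoxia and 8751 to 9509 CPM in normoxia. Tubb3, a neuronal tubulin, made most of that gap, at 563 to 838 CPM with T3, 922 to 1357 CPM in hypoxia and 2262 to 2578 CPM in normoxia; without it the sums overlapped, at 6183 to 6593 CPM, 5934 to 6536 CPM and 6473 to 6943 CPM in the same order. The neurofilament Nefl lay the other way, at 250.99 to 257 CPM with T3, 175 to 200 CPM in hypoxia and 154 to 172 CPM in normoxia. All 6 microglia markers failed the filter. The 11 astrocyte markers, of which S100b failed the filter, summed to 485 to 644 CPM, 383 to 643 CPM and 315 to 429 CPM in the same order, and hypoxia 9 was the highest hypoxia library at 643 CPM. The 7 markers of the oligodendrocyte lineage summed to 129 to 184 CPM, 72.7 to 209.9 CPM and 37.7 to 140.4 CPM, and the 7 of cycling progenitors to 82.0 to 149 CPM, 53.3 to 156 CPM and 18.1 to 113 CPM, in that order. Hypoxia 9 stood nearer to the T3 libraries on the first principal component than the other hypoxia libraries did, at 14.0, where they had 2.9 and 2.5 and the T3 libraries had 17.6 or more. The 3 rows tied to RNA handling, the ribosomal RNA precursor Rn45s, Lars2 and Mir6236, summed to 11004 to 28956 CPM with T3, 10872 to 16168 CPM in hypoxia and 37755 to 51454 CPM in normoxia. The part of these differences in the results below was not tested, and in bulk RNA fewer cells of a type and less RNA per cell cannot be told apart.

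Transcripts of cytosolic synthetases were far more abundant than those of mitochondrial ones. Per kilobase of merged exon, the 18 cytosolic genes had levels of 13.6 (Tars) to 99.0 CPM (Nars) in normoxia, with a median of 32.1 CPM. The 16 mitochondrial genes had 1.16 (Mars2) to 9.82 CPM (Rars2), with a median of 4.90 CPM, so every cytosolic gene stood above every mitochondrial one. Gars, the glycyl enzyme, was the highest of all at 121 ± 6.13 CPM per kilobase in normoxia (SD, n = 3), and Kars, the lysyl enzyme, had 50.0 ± 1.64 CPM per kilobase. Within amino acids the per-kilobase level of the cytosolic gene over that of its mitochondrial partner in normoxia ran from 2.34 times for threonine to 35.4 times for asparagine.

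In hypoxia against normoxia, on the authors' TMM scale, cytosolic synthetases changed in both directions and every mitochondrial call was downward; neither holds when the columns are scaled to equal sums. Of all 36 genes 4 were higher in hypoxia and 6 were lower by limma at an adjusted p under 0.05, where 14.3% of all tested genes were higher and 19.3% were lower. The 4 higher ones were the cytosolic Tars, Iars, Nars and Mars, and the 6 lower ones were the cytosolic Lars and Eprs and the mitochondrial Rars2, Pars2, Mars2 and Fars2. Among the 20 cytosolic and dual genes, 4 were higher and 2 lower, with 10 positive and 10 negative log2 changes. Among the 16 mitochondrial genes, 0 were higher and 4 lower, and 15 of 16 log2 changes were negative. By limma, 0 mitochondrial genes were higher at an unadjusted p under 0.05 as well, and edgeR and DESeq2 on the recovered reads also called 0 higher. The share of all genes at an unadjusted p was not counted. With the columns scaled to equal sums, which moved the median of all genes by 0.13 on the log2 scale, 11 cytosolic and dual genes were higher and 0 lower, Yars2 was higher (0.34, adjusted p = 0.034, limma) and Rars2 alone of the mitochondrial genes was lower. On that scale 19 of 20 cytosolic and dual log2 changes were positive and 10 of 16 mitochondrial ones negative, and of all 12923 genes 3974 were higher and 1232 lower, where the TMM scale gave 1846 and 2497.

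Tars, the threonyl enzyme, had the largest change of the family. It had 78.6, 74.8 and 87.1 CPM in hypoxia 7, 8 and 9, against 54.7, 54.7 and 53.6 CPM in normoxia 1, 2 and 3. Every hypoxia library was above every normoxia library, and hypoxia 9 was the highest. Its mean was 80.1 ± 6.29 CPM in hypoxia and 54.3 ± 0.637 CPM in normoxia (SD, n = 3 each), a log2 change of 0.55, SE 0.06, adjusted p = 0.00015 by limma. Iars, the isoleucyl enzyme of the multi-synthetase complex, had 139, 129 and 149 CPM in hypoxia 7, 8 and 9, against 113, 119 and 112 CPM in normoxia 1, 2 and 3. The groups did not overlap, and its log2 change was 0.27, SE 0.06, adjusted p = 0.008 by limma. The promoter windows of both genes are shown because each holds a match to TGATGNAA, the core of the C/EBP-ATF response element, close to the annotated start. The windows run 5′ to 3′ along the gene from 250 bases before the start to 50 after it, from RefSeq on GRCm38.p6, the assembly that mm10 names; the Tars window is chr15:11399609-11399908, minus strand, and the Iars window is chr13:49681880-49682179, plus strand. Capitals mark the match, which in both reads as its reverse complement.
Tars: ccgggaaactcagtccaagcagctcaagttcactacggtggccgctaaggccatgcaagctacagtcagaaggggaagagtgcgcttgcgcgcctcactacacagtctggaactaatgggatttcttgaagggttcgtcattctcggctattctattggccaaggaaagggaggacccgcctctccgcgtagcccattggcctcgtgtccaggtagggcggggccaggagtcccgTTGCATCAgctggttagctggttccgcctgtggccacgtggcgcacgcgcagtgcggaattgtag
Iars: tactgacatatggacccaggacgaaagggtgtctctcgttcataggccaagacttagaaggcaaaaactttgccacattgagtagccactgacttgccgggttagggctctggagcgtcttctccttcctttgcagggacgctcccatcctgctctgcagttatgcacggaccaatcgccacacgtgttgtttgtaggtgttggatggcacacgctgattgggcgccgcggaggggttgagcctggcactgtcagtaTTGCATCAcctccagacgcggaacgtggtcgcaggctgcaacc
The match begins at -15 in Tars and at 8 in Iars, counted in bases from the annotated start. Both windows also hold ACGTG, the core that hypoxia-inducible factors bind. A match is a description of these letters only.

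Nars, the asparaginyl enzyme, was also higher, with 345, 312 and 346 CPM in hypoxia 7, 8 and 9, against 294, 285 and 289.7 CPM in normoxia 1, 2 and 3. Its hypoxia libraries all lay above its normoxia libraries, with hypoxia 8 nearest to them (log2 change 0.20, SE 0.05, adjusted p = 0.015, limma). Mars, the methionyl enzyme that also charges the initiator transfer RNA, had 93.3, 91.3 and 98.8 CPM in hypoxia 7, 8 and 9, against 81.8, 86.8 and 87.2 CPM in normoxia 1, 2 and 3. The groups did not overlap, and the log2 change of 0.15, SE 0.05, adjusted p = 0.047, was the closest to the threshold among the calls. Mars shares 68 exon bases on the opposite strand with Ddit3, a stress gene with a log2 change of 0.50, and whether counting used the strand is not given in the sources used here. Lars, the leucyl enzyme, ran the other way with 73.0, 72.1 and 74.0 CPM in hypoxia 7, 8 and 9, against 87.0, 87.5 and 84.3 CPM in normoxia 1, 2 and 3. All of its hypoxia values lay below all of its normoxia values (log2 change -0.24, SE 0.06, adjusted p = 0.009, limma). Eprs, which joins the glutamyl and prolyl activities in 1 protein, had 206, 206 and 207 CPM in hypoxia 7, 8 and 9, against 231, 226 and 221 CPM in normoxia 1, 2 and 3. It was lower without overlap (log2 change -0.13, SE 0.04, adjusted p = 0.036, limma). With equal column sums Eprs turned to 0.0085 (adjusted p = 0.89) and the call on Lars was lost (-0.10, adjusted p = 0.23).

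**Figure D1:**
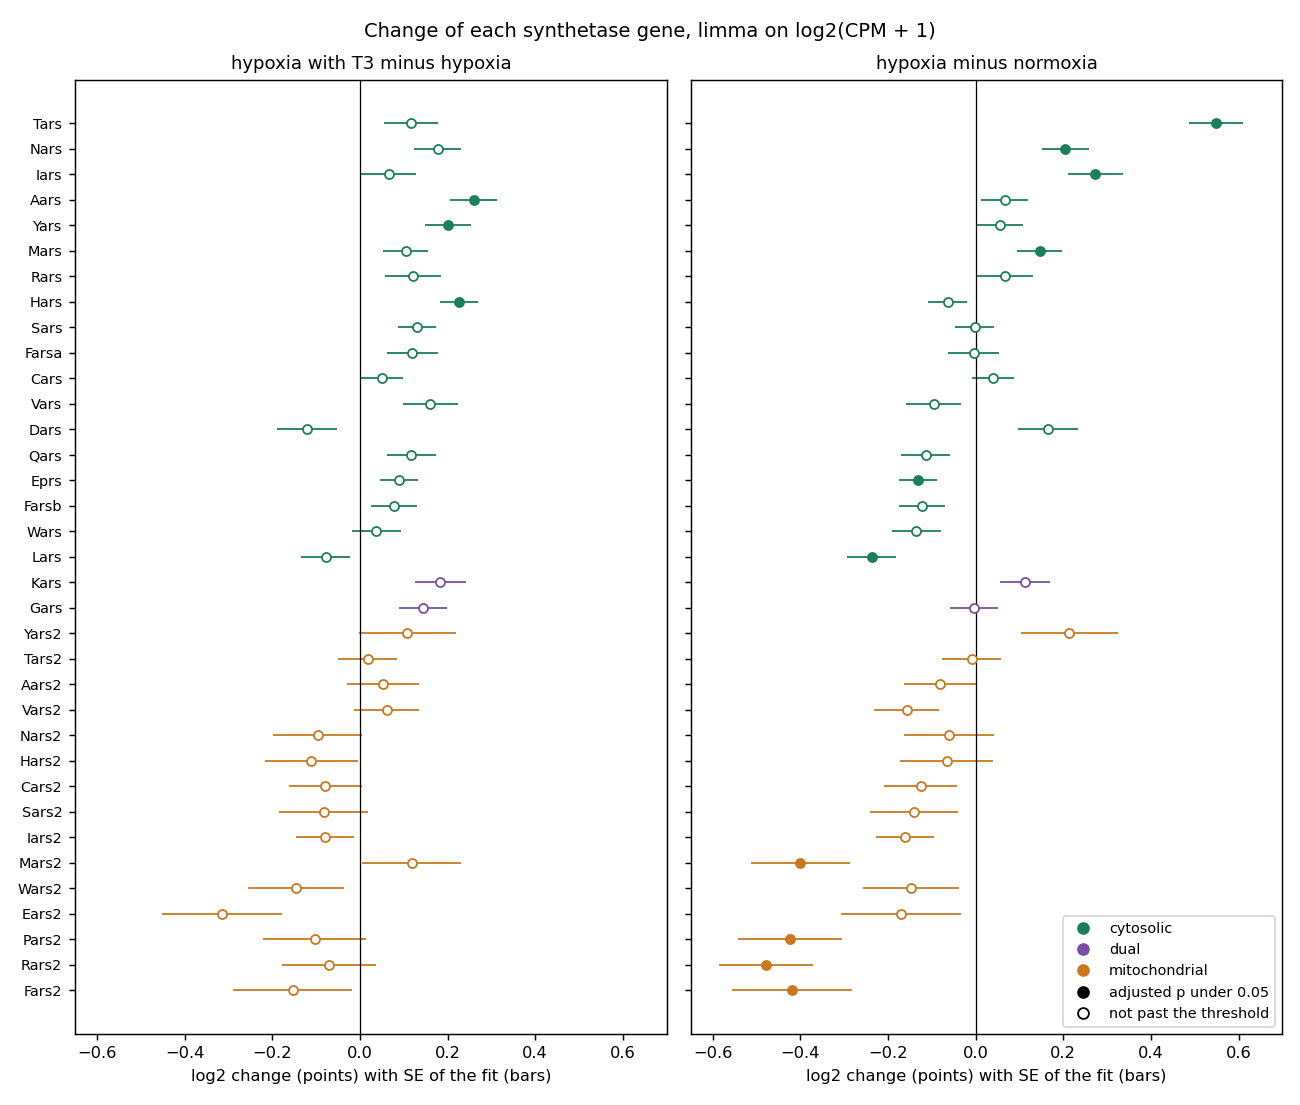
Log2 change of each of 35 synthetase genes (rows, grouped by compartment) for hypoxia with T3 minus hypoxia and hypoxia minus normoxia, with the SE of the limma fit as bars; filled points passed an adjusted p of 0.05. In hypoxia minus normoxia 14 of 15 mitochondrial genes lie left of 0 (with equal column sums 10 of all 16 have a negative change) and Tars stands apart at 0.55, and in hypoxia with T3 minus hypoxia 18 of 20 cytosolic and dual genes lie right of 0.

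The 4 mitochondrial synthetases that fell had normoxia levels of 5.84 (Fars2) to 18.3 CPM (Rars2), well under the cytosolic genes. Rars2, the mitochondrial arginyl enzyme, had 12.04, 14.5 and 12.2 CPM in hypoxia 7, 8 and 9, against 19.9, 17.9 and 17.2 CPM in normoxia 1, 2 and 3. All 3 hypoxia libraries lay below all 3 normoxia libraries, and its log2 change was -0.48, SE 0.11, adjusted p = 0.007 by limma. Its cytosolic partner Rars had 63.7, 61.1 and 70.4 CPM in hypoxia 7, 8 and 9, against 64.9, 59.9 and 61.2 CPM in normoxia 1, 2 and 3, and these overlapped (log2 change 0.07, SE 0.06, adjusted p = 0.43). Pars2, the prolyl enzyme, had 4.41, 3.93 and 4.75 CPM in hypoxia 7, 8 and 9, against 6.33, 6.16 and 6.04 CPM in normoxia 1, 2 and 3. The groups stood clear of each other (log2 change -0.42, SE 0.12, adjusted p = 0.019, limma), and the cytosolic prolyl activity lies in Eprs. Mars2, the methionyl enzyme, had 8.14, 11.1 and 9.99 CPM in hypoxia 7, 8 and 9, against 13.6, 13.1 and 12.5 CPM in normoxia 1, 2 and 3. It was lower without overlap (log2 change -0.40, SE 0.11, adjusted p = 0.020, limma) while its partner Mars was higher. Fars2, the phenylalanyl enzyme, had 3.90, 5.14 and 3.45 CPM in hypoxia 7, 8 and 9, against 5.58, 5.98 and 5.97 CPM in normoxia 1, 2 and 3. Hypoxia 8 came nearest to the normoxia values (log2 change -0.42, SE 0.14, adjusted p = 0.036, limma). The cytosolic phenylalanyl enzyme is built from the subunits Farsa and Farsb, which had log2 changes of -0.00 and -0.12 and did not pass (adjusted p = 0.96 and 0.095, limma).

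The Rars2 window is printed as the mitochondrial gene with the largest decrease, and it holds no match to the C/EBP-ATF core on either strand and an ACGTG at -99 on the opposite strand. It is chr4:34614707-34615006, plus strand, from the same RefSeq table, with nothing in capitals.
Rars2: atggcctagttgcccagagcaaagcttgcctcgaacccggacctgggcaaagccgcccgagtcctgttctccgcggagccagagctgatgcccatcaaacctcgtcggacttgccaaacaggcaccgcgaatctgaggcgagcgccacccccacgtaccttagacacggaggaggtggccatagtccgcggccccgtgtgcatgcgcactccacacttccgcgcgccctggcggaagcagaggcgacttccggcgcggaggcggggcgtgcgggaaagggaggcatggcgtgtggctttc

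**Figure D2:**
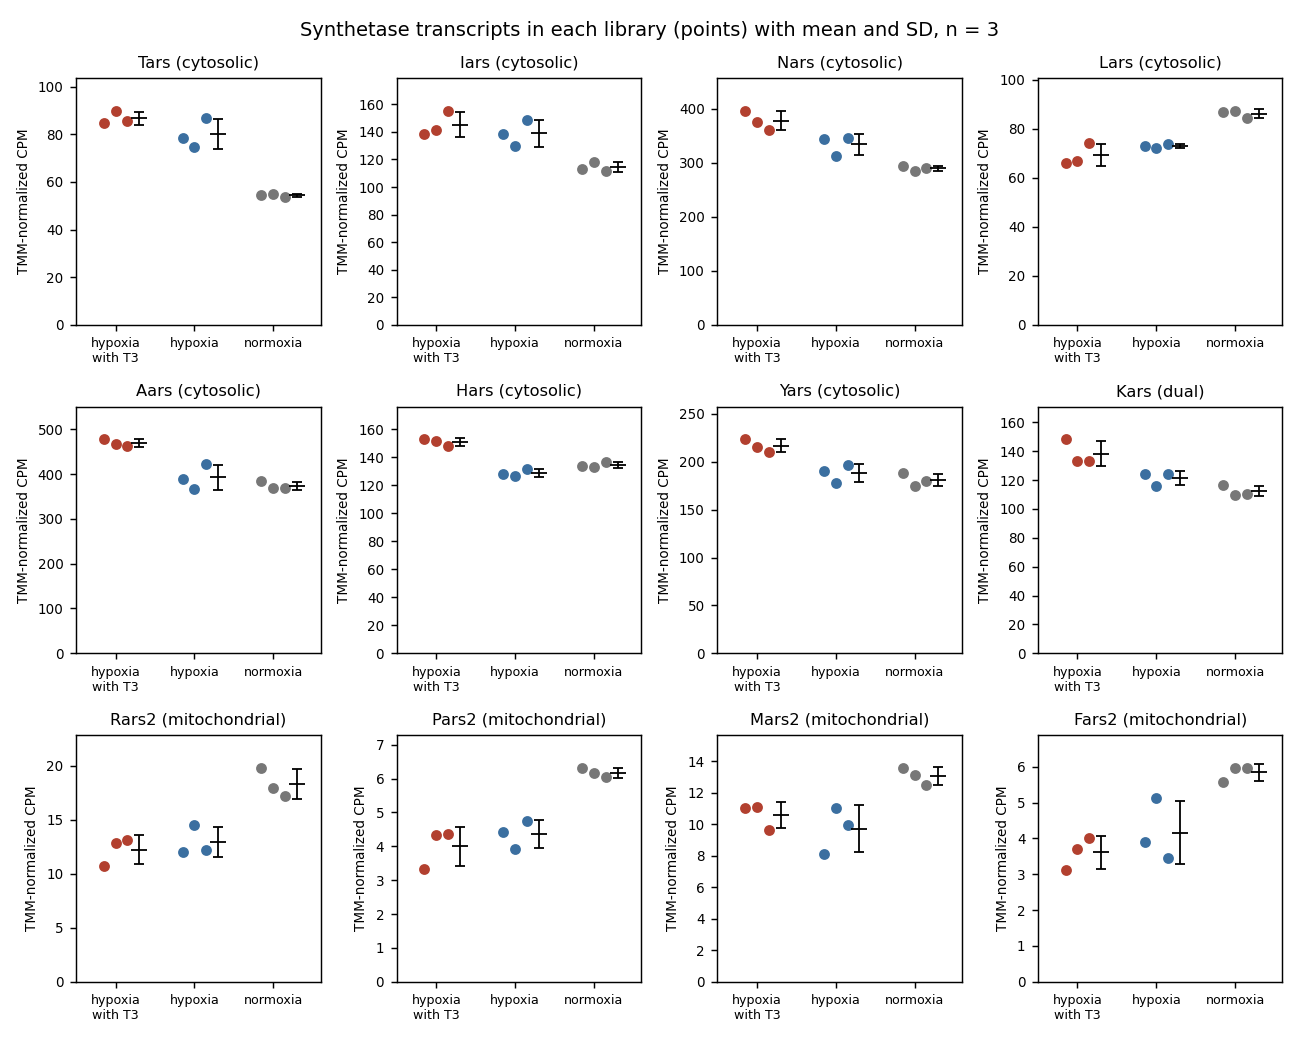
TMM-normalized CPM of 12 synthetase genes in each library (points), with the group mean and SD (n = 3), for hypoxia with T3, hypoxia and normoxia. Tars, Iars and Nars lie higher and Lars, Rars2, Pars2, Mars2 and Fars2 lower in hypoxia than in normoxia, and Aars, Hars and Yars lie higher in hypoxia with T3 than in hypoxia.

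The remaining mitochondrial genes did not pass. Of all 16, 9 had hypoxia libraries entirely below their normoxia libraries and 0 entirely above, where 27.0% of all tested genes lay entirely below and 20.7% entirely above. Yars2, the mitochondrial tyrosyl enzyme, was the single positive one, at 13.6, 11.3 and 15.8 CPM in hypoxia 7, 8 and 9, against 11.2, 11.3 and 11.8 CPM in normoxia 1, 2 and 3 (log2 change 0.21, SE 0.11, adjusted p = 0.16, limma). The groups overlapped, since normoxia 3 lay above hypoxia 8. The median log2 change was -0.15 over the mitochondrial genes and 0.02 over the cytosolic genes, a difference of 0.17, beside -0.00 over all genes tested. Relative to the median of all genes, the equal-sum columns gave -0.15 and 0.03.

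Calls on 4 of the 10 genes, Tars, Iars, Lars and Rars2, held whichever library was left out. Nars was lost without hypoxia 7 (adjusted p = 0.051) or hypoxia 9 (0.058), Pars2 without normoxia 1 (0.053) or hypoxia 8 (0.063), Mars2 without normoxia 1 (0.061), normoxia 2 (0.053) or hypoxia 7 (0.067), and Eprs, Mars and Fars2 without 6, 8 and 6 of the 9 libraries.

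With T3 added to hypoxia, the cytosolic Hars, Aars and Yars rose by 0.20 to 0.26 on the log2 scale, and none of the mitochondrial genes passed. These 3 of the 36 genes were higher and 0 were lower by limma at an adjusted p under 0.05, where 2.73% of all tested genes were higher and 3.75% lower. At an unadjusted p under 0.05, 8 were higher and 2 lower by limma, 8 and 2 by edgeR, and 9 and 1 by DESeq2. The share of all genes at that unadjusted threshold was not counted, so these counts have none beside them. At an adjusted p under 0.05 edgeR and DESeq2 also called 0 lower. Of the 20 cytosolic and dual genes 18 had a positive log2 change and 13 had T3 libraries entirely above the hypoxia libraries. Of the 16 mitochondrial genes 5 had a positive log2 change and 0 lay entirely above or below, where 15.8% of all tested genes lay entirely above and 15.8% entirely below. Median log2 changes were 0.12 over the cytosolic, -0.08 over the mitochondrial and -0.01 over all genes tested. This comparison shares the hypoxia libraries with the one before it, so a chance deviation in them enters both with opposite sign.

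Hars, the histidyl enzyme, had 153, 152 and 148 CPM in hypoxia with T3 11, 12 and 13, against 128, 127 and 132 CPM in hypoxia 7, 8 and 9. Every T3 library exceeded every hypoxia library by more than the spread within either group. Its mean was 151 ± 2.77 CPM with T3 and 129 ± 2.64 CPM in hypoxia (SD, n = 3 each), a log2 change of 0.23, SE 0.04, adjusted p = 0.022 by limma. Hars and Hars2 are a divergent gene pair that shares 195 exon bases on opposite strands, and Hars2 had a log2 change of -0.11 (adjusted p = 0.54, limma). Aars, the alanyl enzyme, had 479, 467 and 463 CPM in hypoxia with T3 11, 12 and 13, against 388, 368 and 422 CPM in hypoxia 7, 8 and 9. The groups did not overlap, with hypoxia 9 nearest to the T3 libraries (log2 change 0.26, SE 0.05, adjusted p = 0.026, limma). Aars shares 1326 exon bases, 23.1% of its own, with Exosc6 on the same strand, and Exosc6 stood at 11.2 CPM with T3 and 10.1 CPM in hypoxia. How reads in the shared bases were divided is not given in the sources used here, and their part in the Aars change was not tested. Yars, the tyrosyl enzyme, had 224, 216 and 210.4 CPM in hypoxia with T3 11, 12 and 13, against 191, 178 and 197 CPM in hypoxia 7, 8 and 9. It was higher without overlap (log2 change 0.20, SE 0.05, adjusted p = 0.047, limma).

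The promoter windows of Aars and Yars, called higher here, and of the dual gene Gars are shown because each holds the C/EBP-ATF core: at 4 in Yars, at -30 in Gars, and at both -112 and 10 in Aars. The windows are chr8:111033592-111033891, plus strand for Aars, chr4:129189653-129189952, plus strand for Yars and chr6:55037751-55038050, plus strand for Gars, in the same RefSeq table, with the matches in capitals.
Aars: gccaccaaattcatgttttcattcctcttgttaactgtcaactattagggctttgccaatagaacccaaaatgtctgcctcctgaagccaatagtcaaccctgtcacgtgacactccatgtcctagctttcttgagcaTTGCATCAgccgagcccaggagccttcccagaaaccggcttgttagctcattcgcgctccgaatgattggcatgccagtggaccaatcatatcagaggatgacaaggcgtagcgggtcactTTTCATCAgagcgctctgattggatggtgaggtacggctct
Yars: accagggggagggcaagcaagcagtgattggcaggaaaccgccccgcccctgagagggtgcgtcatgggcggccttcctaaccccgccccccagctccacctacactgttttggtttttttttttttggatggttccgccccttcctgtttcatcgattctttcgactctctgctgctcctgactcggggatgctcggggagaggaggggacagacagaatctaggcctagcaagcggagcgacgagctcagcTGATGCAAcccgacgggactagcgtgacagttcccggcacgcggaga
Gars: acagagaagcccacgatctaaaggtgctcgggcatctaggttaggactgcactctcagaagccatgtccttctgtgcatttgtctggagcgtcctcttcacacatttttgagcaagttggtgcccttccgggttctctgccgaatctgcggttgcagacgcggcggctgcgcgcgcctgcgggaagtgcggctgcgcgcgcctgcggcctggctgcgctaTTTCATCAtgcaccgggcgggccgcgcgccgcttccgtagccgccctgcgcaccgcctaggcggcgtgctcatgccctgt
Gars had 313, 312 and 328 CPM in hypoxia with T3 11, 12 and 13, against 294, 269.7 and 299 CPM in hypoxia 7, 8 and 9, without overlap, and did not pass (log2 change 0.14, SE 0.06, adjusted p = 0.12, limma).

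Of the members next in order, Nars had 397, 376 and 361 CPM in hypoxia with T3 11, 12 and 13, against 345, 312 and 346 CPM in hypoxia 7, 8 and 9 (log2 change 0.18, SE 0.05, adjusted p = 0.066, limma). Kars had 148, 134 and 133 CPM in hypoxia with T3 11, 12 and 13, against 124, 116 and 124 CPM in hypoxia 7, 8 and 9 (log2 change 0.18, SE 0.06, adjusted p = 0.071, limma). Sars, the seryl enzyme, had 213, 201 and 207 CPM in hypoxia with T3 11, 12 and 13, against 191, 185 and 190.3 CPM in hypoxia 7, 8 and 9 (log2 change 0.13, SE 0.04, adjusted p = 0.084, limma). In all of these the T3 libraries lay above the hypoxia libraries, and none passed. Dars, the aspartyl enzyme, and Lars had negative log2 changes of -0.12 and -0.08, both with overlapping groups.

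Ears2, Wars2 and Iars2, among the mitochondrial genes with the smallest adjusted p values in this comparison, had negative log2 changes and overlapping groups. Ears2, the glutamyl enzyme, had 3.73, 4.56 and 4.25 CPM in hypoxia with T3 11, 12 and 13, against 4.52, 6.86 and 5.12 CPM in hypoxia 7, 8 and 9 (log2 change -0.31, SE 0.14, adjusted p = 0.16, limma), beside 0.09 for Eprs. Hypoxia 8 was its highest library. Wars2, the tryptophanyl enzyme, had 5.97, 5.62 and 7.29 CPM in hypoxia with T3 11, 12 and 13, against 7.29, 7.17 and 6.66 CPM in hypoxia 7, 8 and 9 (log2 change -0.15, SE 0.11, adjusted p = 0.42), and its partner Wars had a log2 change of 0.04. Iars2, the isoleucyl enzyme, had 35.2, 39.1 and 35.4 CPM in hypoxia with T3 11, 12 and 13, against 36.8, 38.3 and 41.1 CPM in hypoxia 7, 8 and 9 (log2 change -0.08, SE 0.07, adjusted p = 0.47), beside 0.07 for Iars, whose groups also overlapped.

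All 3 calls of this comparison were lost without hypoxia 7, hypoxia 8, hypoxia with T3 11 or hypoxia with T3 12, leaving 0 members higher in each case, and 3 were higher without hypoxia 9. For Hars the adjusted p then lay between 0.070 and 0.11, while its log2 change stayed between 0.21 and 0.22. Yars was also lost without normoxia 2 (adjusted p = 0.060) or normoxia 3 (0.059), and so under 6 of the 9 omissions, and with equal column sums (0.053).

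**Figure D3:**
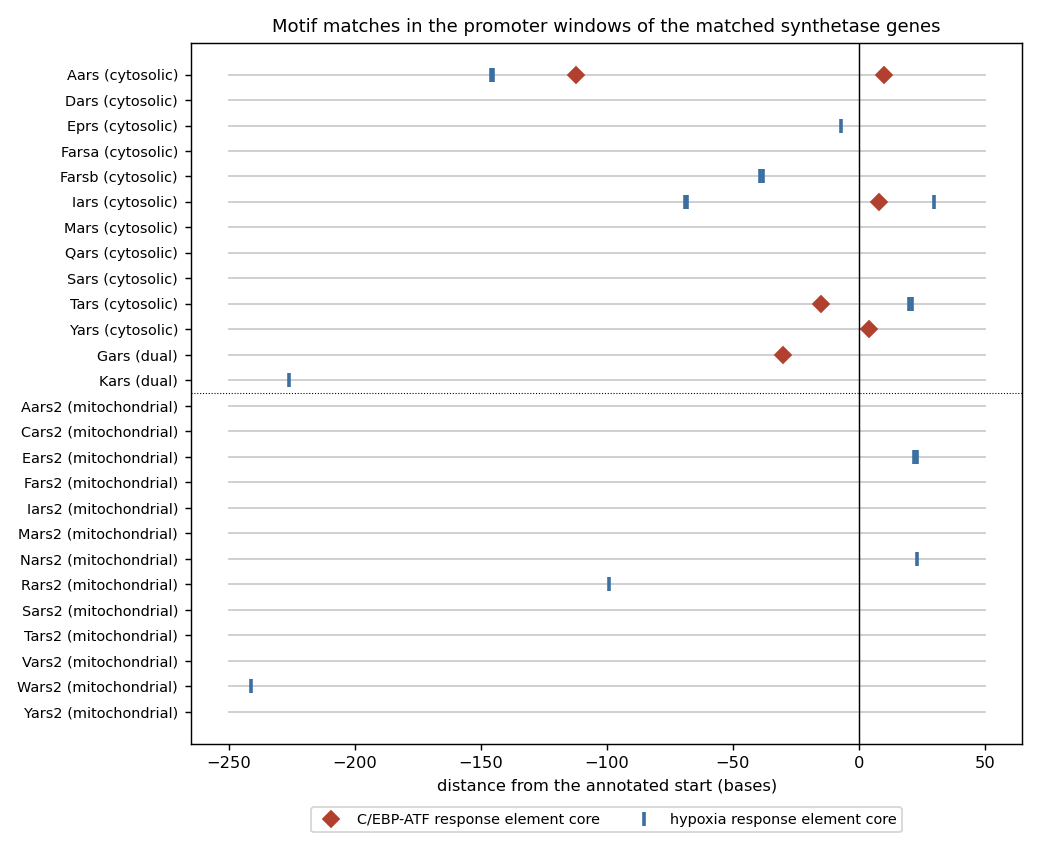
Matches of the C/EBP-ATF response element core (diamonds) and of the hypoxia response element core (ticks) on either strand in the 300-base promoter windows of the 26 synthetase genes found in the RefSeq table, by distance from the annotated start in bases. Diamonds lie in 5 of 13 cytosolic and dual genes and in 0 of 13 mitochondrial genes.

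Windows were found for 26 of the 36 genes, 13 cytosolic or dual and 13 mitochondrial; Cars, Hars, Lars, Nars, Rars, Vars, Wars, Hars2 and Pars2 were among those not matched. TGATGNAA, read on both strands, was in 5 of the 13 cytosolic and dual genes (38.5%), Aars, Iars, Tars, Yars and Gars, and in 0 of the 13 mitochondrial genes. Of all 27025 genes with a window 4.51% hold it, and of all 32851 windows 3.97%. The genes with a match include 2 of the called increases in hypoxia, Tars and Iars, and 2 of those with T3, Aars and Yars, while Mars, which was higher in hypoxia, has none in its window. ACGTG, also read on both strands, so that a CACGTG counts on each, was in 6 of 13 cytosolic and dual genes, 4 of 13 mitochondrial genes and 21.8% of all genes. Matches of the TGATGNAA and ACGTG motifs did not overlap in any member. Absence of a match says only that these letters are not in this window.

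Hypoxia with T3 against normoxia, which shares its libraries with both comparisons above, gave a cytosolic median log2 change of 0.12 and a mitochondrial one of -0.23, a difference of 0.35. In the other two comparisons that difference was 0.20 (with T3 against hypoxia) and 0.17 (hypoxia against normoxia). Of the 36 genes 11 were higher and 8 were lower, where 25.5% of all tested genes were higher and 29.5% lower. The higher ones were the cytosolic Tars (0.67 on the log2 scale), Nars (0.38), Iars (0.34), Aars (0.33), Yars (0.26), Mars (0.25), Rars (0.19), Hars (0.16) and Sars (0.13), the dual Kars (0.30) and the mitochondrial Yars2 (0.32). The lower ones included the cytosolic Lars (-0.32) and the mitochondrial Fars2 (-0.57), Rars2 (-0.55), Pars2 (-0.53), Ears2 (-0.48), Wars2 (-0.29) and Iars2 (-0.24). Tars had 85.0, 90.0 and 85.5 CPM in hypoxia with T3 11, 12 and 13, against 54.7, 54.7 and 53.6 CPM in normoxia 1, 2 and 3, and Rars2 had 10.7, 12.9 and 13.2 CPM in hypoxia with T3 11, 12 and 13, against 19.9, 17.9 and 17.2 CPM in normoxia 1, 2 and 3. Neither gene's groups overlapped (adjusted p = 1.2e-05 and 0.001, limma). Iars2 shares 2034 exon bases, 30.5% of its own, on the opposite strand with Rab3gap2, which had a log2 change of -0.03 in this comparison; Fars2 shares 115 with Lyrm4 (-0.33), Ears2 shares 89 with Ubfd1 (0.28) and Yars shares 30 with C77080 (0.52), all on the opposite strand. Tars2, the mitochondrial threonyl enzyme, stayed between 24.2 and 26.3 CPM in all 9 libraries. Groups lay apart upward in 12 and downward in 1 of the 20 cytosolic and dual genes, and upward in 1 and downward in 10 of the 16 mitochondrial genes, where 29.8% of all tested genes lay apart upward and 33.0% downward. Calls on 15 of the 19 held whichever library was left out, and those on Rars, Sars, Wars2 and Yars2 did not. With equal column sums the calls on Iars2 (-0.14, adjusted p = 0.12, limma) and Wars2 (-0.20, adjusted p = 0.16) were lost. On that scale 13 cytosolic and dual genes were higher and 1 lower, and 1 mitochondrial gene was higher and 5 lower. Of all 12923 genes 4527 were then higher and 2856 lower.

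The balance between the compartments differed between the groups of libraries. The 20 cytosolic and dual genes summed to 3141 ± 32.2 CPM with T3, 2844 ± 111 CPM in hypoxia and 2764 ± 48.1 CPM in normoxia (SD, n = 3 each). The 16 mitochondrial genes summed to 233 ± 2.51 CPM, 240.5 ± 3.71 CPM and 268 ± 8.73 CPM in the same groups. The ratio of the sums, which does not depend on the scaling of a library, was 13.8, 13.3 and 13.4 in hypoxia with T3 11, 12 and 13, 12.1, 11.3 and 12.2 in hypoxia 7, 8 and 9, and 10.6, 9.87 and 10.5 in normoxia 1, 2 and 3. The groups did not overlap in this ratio. The median of the cytosolic genes minus that of the mitochondrial genes, each relative to the gene's mean in normoxia, was 0.42, 0.36 and 0.38 on the log2 scale with T3, 0.13, 0.10 and 0.27 in hypoxia, and 0.03, -0.01 and 0.02 in normoxia. Members share a library, so these values are given with no test.

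**Figure D4:**
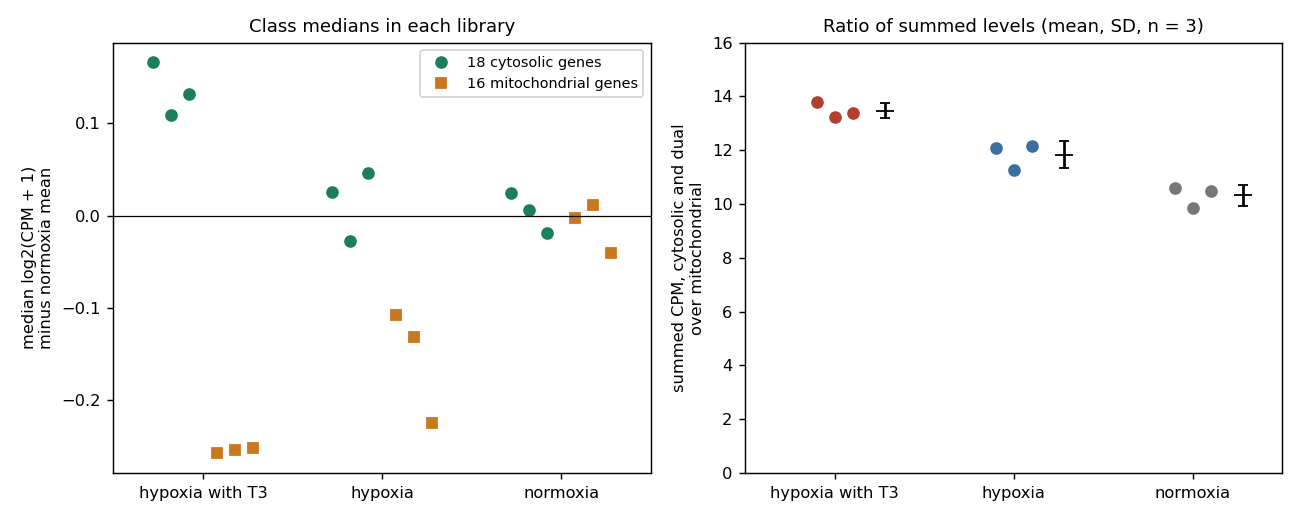
Left, median over the 18 cytosolic (circles) and 16 mitochondrial (squares) synthetase genes of log2(CPM + 1) minus the gene's mean in normoxia, for each library; right, ratio of the summed CPM of cytosolic and dual genes to that of mitochondrial genes in each library, with mean and SD (n = 3). The ratio averaged 13.5 in hypoxia with T3, 11.8 in hypoxia and 10.3 in normoxia.

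Most amino acids showed this balance singly. For 16 pairs of a cytosolic and a mitochondrial gene, the log2 ratio of (CPM + 1) was taken within each library, with Eprs as partner of both Ears2 and Pars2 and Farsa as partner of Fars2. In hypoxia against normoxia the mean ratio was higher in 15 of 16 pairs, with a median change of 0.22, and in 10 pairs the hypoxia libraries lay entirely above normoxia. With T3 against hypoxia the mean ratio was higher in 15 pairs, with a median change of 0.19, and in 4 pairs without overlap, those of alanine, cysteine, histidine and glutamate. With T3 against normoxia it was higher in 15 pairs, with a median change of 0.46, and in 14 without overlap. How often the ratios of other gene pairs lie apart between these groups was not counted, so these counts have no share beside them. The arginine pair Rars/Rars2 had log2 ratios of 2.44 ± 0.155 with T3, 2.25 ± 0.225 in hypoxia and 1.70 ± 0.0583 in normoxia (SD, n = 3 each), and the threonine pair Tars/Tars2 had 1.74 ± 0.0702, 1.64 ± 0.151 and 1.08 ± 0.036 in these groups. The tyrosine pair Yars/Yars2 was the exception in both comparisons with normoxia, with changes of -0.16 in hypoxia and -0.07 with T3, and its groups overlapped. With T3 against hypoxia the methionine pair was the exception, at -0.01. In hypoxia against normoxia the cytosolic gene alone passed upward for threonine, isoleucine and asparagine (Tars, Iars and Nars) and alone passed downward for glutamate (Eprs), the mitochondrial gene passed downward for arginine and phenylalanine (Rars2 and Fars2), both passed in opposite directions for methionine (Mars and Mars2), and both passed downward for proline (Eprs and Pars2).

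**Figure D5:**
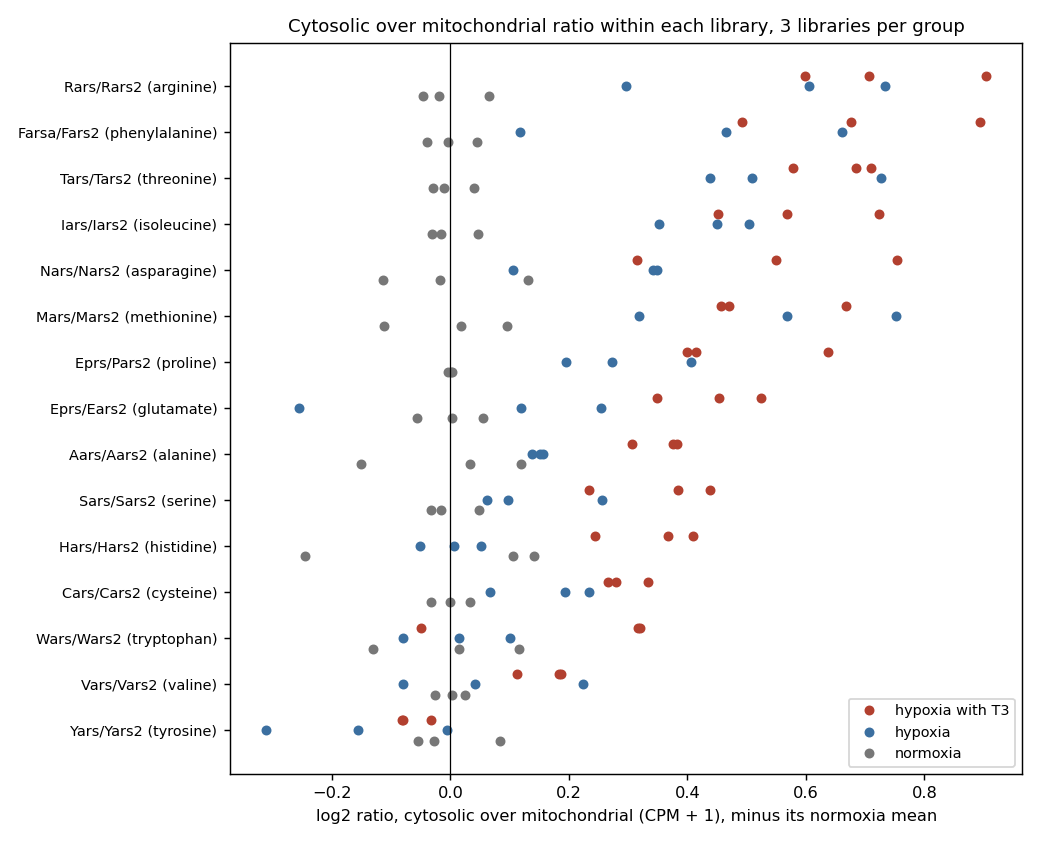
Log2 ratio of cytosolic over mitochondrial (CPM + 1) for 15 amino acid pairs (rows) in each library (points), minus the pair's mean in normoxia; 3 libraries per group. In hypoxia with T3 13 of these pairs lie entirely above their normoxia libraries, and in hypoxia 9 do.

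Membership of the multi-synthetase complex did not sort the changes by direction. Of its 8 synthetases, Iars and Mars were higher and Lars and Eprs lower in hypoxia against normoxia, with a median log2 change of 0.09, and Qars, Kars, Rars and Dars did not pass. Among the 12 cytosolic and dual genes outside it, Tars and Nars were higher, with a median of -0.00. With T3 against hypoxia the 3 called genes were all outside the complex. By catalytic fold, the structural division of the family, the 10 class I cytosolic enzymes held Iars, Mars, Lars and Eprs and had a median of -0.03 in hypoxia against normoxia, and the 10 class II cytosolic and dual enzymes held Tars and Nars and had a median of 0.03. Of the 12 synthetases often described as ATF4-dependent, 4 were higher and 2 lower in hypoxia against normoxia, 2 were higher with T3 against hypoxia, and 7 were higher and 1 lower with T3 against normoxia. Of the 8 other cytosolic and dual genes, Hars was higher with T3 against hypoxia, and Hars, Kars and Rars with T3 against normoxia. These lists were chosen with earlier results of the same libraries known. Among all tested genes 14.3% were higher and 19.3% lower in hypoxia against normoxia, and 2.73% higher and 3.75% lower with T3 against hypoxia. With T3 against normoxia these shares were 25.5% and 29.5%.

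Of 23 tested genes for the complex scaffolds, editing, tRNA maturation, mitochondrial charging and delivery to the ribosome, 4 were higher and 2 lower in hypoxia against normoxia. Their median log2 change was 0.03, and of all tested genes 14.3% were higher and 19.3% lower. Aimp2, a scaffold of the multi-synthetase complex, had 42.0, 46.1 and 45.6 CPM in hypoxia 7, 8 and 9, against 38.9, 33.5 and 36.7 CPM in normoxia 1, 2 and 3, without overlap (log2 change 0.29, SE 0.07, adjusted p = 0.011, limma). The scaffold Aimp1 was higher by 0.21, the elongation factor subunit Eef1b2 by 0.31 and Pstk, a kinase of selenocysteine synthesis, by 0.37, while the third scaffold, Eef1e1, did not pass (-0.05, adjusted p = 0.64). Aarsd1, which removes wrong amino acids from the tRNA for alanine, and Dtd1, which removes D-amino acids from tRNA, were lower by limma, with log2 changes of -0.28 and -0.26. With T3 against hypoxia, Eef1a1, which carries charged tRNA to the cytosolic ribosome, had 4896, 4708 and 4285 CPM in hypoxia with T3 11, 12 and 13, against 3849, 3717 and 3915 CPM in hypoxia 7, 8 and 9. It was higher without overlap (log2 change 0.27, SE 0.06, adjusted p = 0.036, limma), as was its exchange factor subunit Eef1g (0.24, SE 0.06, adjusted p = 0.038). These were the 2 of 23 that passed, where 2.73% of all tested genes were higher and 3.75% lower. Tufm, the mitochondrial counterpart of Eef1a1, stood at 0.17 on the log2 scale, short of the threshold (adjusted p = 0.077, limma). Of the genes that convert mischarged glutamyl-tRNA to glutaminyl-tRNA in mitochondria, which take the place of a mitochondrial glutaminyl enzyme, Gatc and Qrsl1 did not pass in either comparison.

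Genes of a fixed list for ATF4 and the amino acid response moved further than the synthetases, and what drove them was not tested. Of 23 tested, 20 were higher in hypoxia against normoxia, with a median log2 change of 0.58, where 14.3% of all tested genes were higher. The log2 changes ran from 0.16 (Asns) to 1.52 (Ddit4). With T3 against hypoxia 8 were higher, with a median of 0.30, where 2.73% of all tested genes were higher. Atf4 itself had 507, 450.4 and 450.2 CPM in hypoxia with T3 11, 12 and 13, 353, 305 and 335 CPM in hypoxia 7, 8 and 9, and 183, 191 and 212 CPM in normoxia 1, 2 and 3, with log2 changes of 0.50 with T3 against hypoxia and 0.76 in hypoxia against normoxia (adjusted p = 0.010 and 6.2e-05, limma). Asns, asparagine synthetase, which makes the amino acid that Nars charges, had 205, 209.5 and 213 CPM in hypoxia with T3 11, 12 and 13, 200.1, 182 and 191 CPM in hypoxia 7, 8 and 9, and 170.4, 165 and 178 CPM in normoxia 1, 2 and 3, and was higher in hypoxia against normoxia by 0.16 (adjusted p = 0.032, limma).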

How the data were processed

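Polyadenylated RNA was sequenced from stranded libraries, per the labels' protocols. The authors deposited 1 table with a column per library, a signal scaled as TMM-normalized CPM, per the file headers and values; the submitters' processing notes name mm10, RSEM 1.2.15, Bowtie2 2.1.0 and edgeR. Filters, annotation and use of strand in counting are not given in the sources used here. Within a column values are whole multiples of 1 read (within 0.01 reads) in 99.89% to 100.0% of rows, and reads were recovered from this step; intervals from reads cover counting error only.

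Libraries were grouped by column header and label. Numbers 7 to 9 and 11 to 13 occur in no title, so no library was paired with another. The unnamed column (1) was not used, and 27 rows with a date for a symbol were not renamed.

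Genes with a value above 1 in at least 3 of 9 libraries (12923) entered 1 limma 3.58.1 fit (R 4.3.3) of log2(CPM + 1) over all groups, with a variance trend and 6 residual degrees of freedom. P-values were two-sided and adjusted over the 12923 genes by the Benjamini-Hochberg method, with calls at 0.05. Log2 changes are on the log2(CPM + 1) scale, which understates those of low genes; means and SDs are of CPM. Alternatives were pseudocounts of 0.1 and 5, a filter of none or of 5 CPM on the mean, fits of the 2 groups compared alone, equal-sum and median-of-ratios scaling, no variance trend, counts models on the recovered reads of 12888 genes (quasi-likelihood in edgeR 4.0.16, DESeq2 1.42.0), and each library left out. The fit was tested on simulated counts. Gene positions and exon lengths are from GENCODE vM21 on GRCm38 and promoter windows from RefSeq on GRCm38.p6, matched by symbol or synonym and by position.

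The members, lists and tests were chosen with earlier results of these data known. Genes given per library are, for T3 against hypoxia and for hypoxia against normoxia, up to 6 cytosolic or dual and 4 mitochondrial members with the smallest adjusted p, with partners; Yars2 and Gars, and library values for hypoxia with T3 against normoxia, were added after values were seen. The values of 1 member are not reported here singly; it stays in the counts, sums and medians.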

Additional observations from a re-analysis of the deposited data

How the results depend on the processing

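No paired analysis was possible because columns 7 to 9 and 11 to 13 carry numbers that no sample title gives. For the member counts and class differences, 153 alternative values stayed within their allowed range and 18 did not. That range was wide for counts: with T3 against normoxia, 8 and 14 members higher both lay within it, where the main fit gave 11. Apart from left-out libraries, 4 of 10 calls in hypoxia against normoxia held under every alternative. With T3 the calls that held were 0 of 3 against hypoxia and 15 of 19 against normoxia. Equal column sums gave 12 members higher and 1 lower in hypoxia against normoxia, where 3974 of all 12923 genes were higher and 1232 lower. In hypoxia with T3 against hypoxia the members higher numbered 1 without a filter, 1 with only the 2 groups fitted, 0 with no variance trend and 6 by DESeq2. Of all genes 93 of 19549, 143 of 12923, 94 of 12923 and 760 of 12888 were higher in these settings, in that order. At an unadjusted p under 0.05, 8 members were higher in the limma fit with the trend, where the share of all genes was not counted. Leaving out 1 library gave 2 to 5 members higher and 2 to 6 lower in hypoxia against normoxia, 0 to 4 higher and 0 to 1 lower with T3 against hypoxia, and 8 to 12 higher and 7 to 9 lower with T3 against normoxia. The shares of all genes called with a library left out were not counted. The cytosolic minus mitochondrial median difference kept its sign throughout. Over left-out libraries it was 0.13 to 0.20 in hypoxia against normoxia, 0.13 to 0.21 with T3 against hypoxia and 0.34 to 0.37 with T3 against normoxia, where a pseudocount of 5 gave 0.29. With equal column sums Eprs turned to 0.0085 and Hars to 0.075 in hypoxia against normoxia, Sars to 0.14 (adjusted p = 0.018, now past the threshold), and Eprs to 0.062 with T3 against normoxia. Sars in hypoxia against normoxia was 0.010 by edgeR and 0.0080 by DESeq2, and ran over left-out libraries between -0.011 and 0.014, as Rars2 with T3 against hypoxia did between -0.12 and 0.017. Of the single-gene values 973 kept their direction and side of the threshold, 79 lost a call and 15 gained one. A mean of at least 5 CPM removed Fars2 and Pars2 from the fit. At 69 to 1438 reads per library, counting error limits the mitochondrial genes most.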

Other observations

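Synthetase rows outside the rule were also read. Tarsl2, a cytosolic threonyl enzyme that shares sequence with Tars, had 46.3, 43.7 and 49.5 CPM in hypoxia with T3 11, 12 and 13, 50.0, 46.7 and 46.1 CPM in hypoxia 7, 8 and 9, and 43.8, 39.7 and 43.4 CPM in normoxia 1, 2 and 3. Its hypoxia libraries lay above normoxia and it did not pass (log2 change 0.17, SE 0.07, adjusted p = 0.080, limma). How reads were divided between Tars and Tarsl2 is not given in the sources used here.

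Lars2, the mitochondrial leucyl enzyme whose row can collect ribosomal RNA reads, had 2436, 1333 and 881 CPM in hypoxia with T3 11, 12 and 13, 3222, 874 and 1107 CPM in hypoxia 7, 8 and 9, and 5432, 4378 and 5437 CPM in normoxia 1, 2 and 3. These levels lie far above those of every other mitochondrial synthetase, whose highest value was 43.9 CPM. The row was lower in hypoxia against normoxia by limma (log2 change -1.79, SE 0.44, adjusted p = 0.010).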
